A study of Homo sapiens with 4 samples.

Results

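The genes described here are the nuclear genes for the oxidative phosphorylation machinery of mitochondria, followed through a miR-26a pull-out from DU-145 cells. They were taken by name, and no measured value entered the rule, though earlier results of these data were known when it was chosen. The set holds the coding genes for numbered NDUFA, NDUFB, NDUFC, NDUFS and NDUFV subunits with NDUFAB1, SDHA to SDHD, the UQCR and UQCC genes with CYC1, the COX4 to COX8 subunits, and the ATP5F1, ATP5M and ATP5P genes. This gave 92 of the 25679 genes in the tables, with 37 in complex I, 4 in complex II, 16 in complex III, 17 in complex IV and 18 in ATP synthase.

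DU-145 is an established, androgen-independent human prostate cancer line, and all 4 libraries came from it. Cells of the 2 control libraries were transfected with an untagged miR-26a duplex at 60 nM. Cells of the 2 biotin libraries received, at the same dose, a mix of miR-26a duplexes with biotin at the 3′ end and a thiouridine at nucleotide 7 or 17. Both groups were irradiated at 365 nm with 2 J/cm2, which links thiouridine to RNA it touches, and both RNAs were put through streptavidin beads, so a control library holds what the beads retained without a tag. Both groups thus carried added miR-26a, and no group had biotin without thiouridine or the reverse. The design names the 2 libraries of a group as biological replicates. No library of RNA from before the beads was analysed here, and each library is a relative measure. In bulk RNA, fewer cells of a kind and less RNA per cell cannot be told apart.

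Oxidative phosphorylation moves electrons from NADH and succinate to oxygen and uses the energy to make ATP. Complex I takes electrons from NADH, complex II takes them from succinate, complex III passes them from ubiquinol to cytochrome c, and complex IV hands them to oxygen. The proton gradient that results drives ATP synthase, whose F1 head makes ATP while a ring of c subunits turns in the membrane. Most subunits are encoded in the nucleus, translated in the cytosol and imported, and many of their mRNAs are short. A microRNA such as miR-26a pairs with mRNAs mainly through its seed, and biotin pull-outs are used to recover RNAs bound to the added microRNA.

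The sequences bear on the question a pull-out asks, whether a recovered mRNA can pair with the seed. In the mature strand from RefSeq the capitals mark the seed, nucleotides 2 to 8. The matching site in a target is TACTTGA, and both thiouridine positions of the design, 7 and 17, are U in this strand.
hsa-miR-26a-5p: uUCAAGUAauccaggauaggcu

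Within the 3′ UTR as far as the deposited transcript reaches, 3 of the 83 tested members held TACTTGA (3.61%), beside 937 of 9326 tested coding genes (10%). The members' 3′ UTRs had a median of 167 nt and those of all tested coding genes 835 nt, so the shares are over unequal lengths. Searching the whole UTR of GENCODE 29, an alternative chosen after seeing the data, gave 5 of 83 (6.02%) beside 1111 of 9351 (11.9%). In coding sequence 0 of 83 members held the site, beside 6.73% of tested coding genes, and the coding lengths searched were not compared. Of the 5 members, the sites of 4, namely ATP5MC3, COX5A, UQCRFS1 and ATP5F1A, are shown in the sense of the mRNA, with the match in capitals and 10 bases on either side.
ATP5MC3: gctagtttctTACTTGAacaagactat
COX5A: ttgacattgcTACTTGAgtgtgaacag
UQCRFS1: aagccttctgTACTTGAagttgatttg
ATP5F1A near site: tgatctatttTACTTGAatattggtac
ATP5F1A far site: gctttctagcTACTTGAgaaataactt

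In GRCh38 these lie at chr2:175177617-175177643 for ATP5MC3, chr15:74920395-74920421 for COX5A and chr19:29207454-29207480 for UQCRFS1, all on the minus strand and inside the deposited transcript. The near ATP5F1A site is at chr18:46084049-46084075 and the far one at chr18:46081764-46081790, on the minus strand. The deposited ATP5F1A transcript spans chr18:46084144-46098353 and holds 138 nt of an annotated UTR of 4034 nt. Its near site starts 217 nt after the stop codon, 79 nt beyond the deposited end, and the far site starts 2502 nt after the stop. Reads over that stretch were not part of the values given here.

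**Figure D1:**
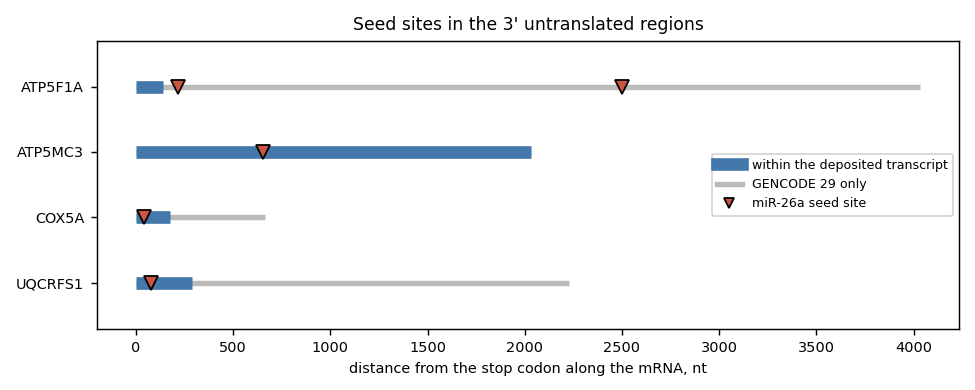
Seed sites of miR-26a in the 3′ UTRs of 4 members, with the distance from the stop codon in nt on the horizontal axis. Thick blue bars are the stretch inside the deposited transcript, grey bars the rest of the GENCODE 29 UTR and triangles the sites. ATP5MC3, COX5A and UQCRFS1 have their site on blue, ATP5F1A both on grey.

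The 4 libraries had an estimated 16030000 and 17830000 (control) and 17560000 and 23640000 (biotin) mapped reads. Across genes, which are not independent replicates, Pearson's r was 0.972 between the controls, 0.97 between the biotin libraries and 0.876 to 0.883 between groups. Of 9 DU-145 epithelial markers 8 were tested, and 0 passed in limma (0 at an unadjusted p of 0.05), with KRT5, a basal keratin, listed at 0. The androgen receptor and its target KLK3 were listed at 0 as well. Summed markers reached at most 0.0152 FPKM for blood, 0.107 for endothelium and 0.635 for fibroblasts and smooth muscle in any library.

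Of the 92 genes, 83 had at least 1 FPKM (fragments per kilobase of transcript, scaled to the mapped fragments of a library) in at least 2 libraries and were tested. The muscle, lung, testis and other tissue isoforms of complex IV accounted for 6 of the other 9, and COX4I2, COX6A2, COX7A1, COX7B2 and COX8C were listed at 0 in every library. COX6B2, the testis isoform, had between 0.0678 and 0.571 FPKM, and ATP5MGL, a near copy of the g subunit gene, reached 0.454 FPKM in biotin replicate 2 alone. NDUFA3 and NDUFA6, accessory subunits of complex I that every respiring cell uses, were also listed at 0 throughout, and several of their deposited rows lie on alternate sequences. A listing at 0 may thus be a failed estimate and is not read as absence. Where reads fell on a 1 kb transcript, 3 reads would have been worth 0.127 to 0.187 FPKM.

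In the biotin pull-out 31 of the 83 tested genes fell and 2 rose, ATP5F1A and NDUFB6. The test was limma on log2(FPKM + 1) over 9940 genes, two-sided, with a Benjamini-Hochberg adjusted p of 0.05 as threshold. The members that fell make up 37.3%, beside 9.35% of all tested genes, and those that rose make up 2.41%, beside 13.1%. At an unadjusted p of 0.05 in limma, 44 members were lower and 5 higher, beside 1973 and 1942 of the 9940 tested genes. The median log2 fold change of the 83 was -0.58, beside -0.06 for all tested genes. Of the 83, 74 were below 0, beside 5506 of the 9940 tested genes. Both biotin libraries were below both controls for 52 members (62.7%, beside 37.7% of all genes) and above both for 6 (7.23%, beside 29.4%).

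ATP5F1A and NDUFB6 kept their call in each of the 4 fits that left out a library, but no falling gene kept its call in all 4. Without control replicate 1 or without control replicate 2, 0 members passed in limma as lower (34 and 36 at an unadjusted p of 0.05), and 32 and 47 of all tested genes did. Without biotin replicate 1, 10 members passed as lower, beside 2.22% of all tested genes, and without biotin replicate 2, 5 did, beside 1.53%. With 2 libraries a group an exact permutation test of a single gene cannot give a p under 0.333, so the calls rest on the spread that limma pools over genes.

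The FPKM of all 92 genes summed to 7773 and 8205 for the controls, against 6341 and 5711 with biotin. ATP5F1A and NDUFB6 made up part of the biotin sums. Without them, a split made after seeing the data, the other 90 genes summed to 7660 and 8095 in the controls and 5307 and 4594 with biotin. The groups do not overlap in either sum.

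**Figure D2:**
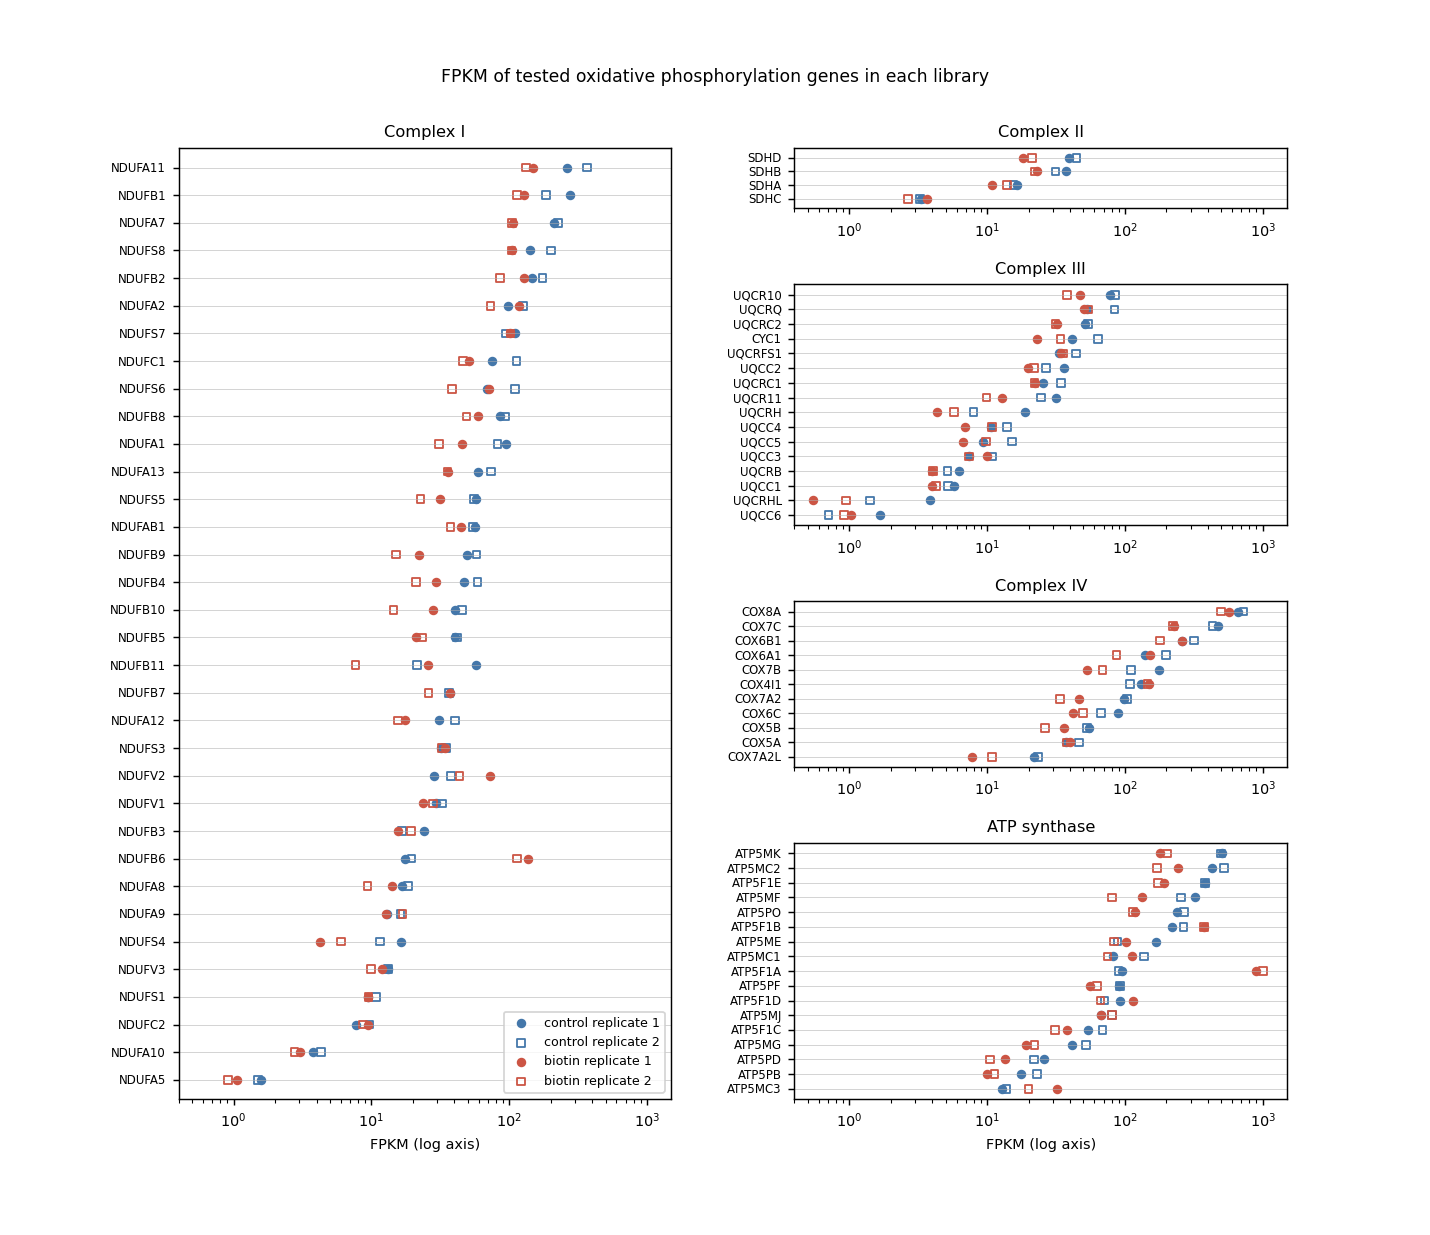
FPKM of tested genes in each library, on a log axis, by complex and ordered by their control mean. Filled circles are replicate 1 and open squares replicate 2, blue for control and red for biotin. Most red points lie to the left of the blue ones, and ATP5F1A and NDUFB6 lie far to the right.

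In ATP synthase 9 of 17 tested genes fell and 1 rose, with a median log2 fold change of -0.81. The 17 had a median length of 806 nt, and 25.4% of all tested genes from 600 to below 1000 nt fell. In the F1 head, alpha and beta subunits alternate around a central shaft. ATP5F1A, the alpha subunit, had an FPKM of 95.5 and 89.9 in the control libraries and of 897 and 1004 after biotin pull-out. The biotin values lay far above both controls, on 2935 and 3078 estimated reads in the controls and 30220 and 45513 with biotin. The log2 fold change was 3.34 ± 0.19 (SE, limma, adjusted p = 0.000487), a 10.3-fold difference of the mean FPKM. Its transcript has 1922 nt. The annotated gene overlaps HAUS1 on the opposite strand by 3 nt, and HAUS1 itself had 7.92, 6.2, 6.21 and 3.92 FPKM in the order control then biotin.

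ATP5F1B, the catalytic beta subunit, had 218 and 266 FPKM in the controls and 375 in each biotin library. Its groups did not overlap, but the difference of 0.64 ± 0.20 on the log2 scale did not pass (limma, adjusted p = 0.0696). ATP5F1A was thus the less abundant mRNA of the pair in the controls, at 0.437 and 0.338 times ATP5F1B, and the more abundant in the biotin libraries, at 2.39 and 2.68 times. As FPKM is per length, these levels can be set side by side. ATP5F1A alone went from 3.36% and 3.06% of the summed ATP synthase FPKM to 33.2% and 38.9%.

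The rest of the head did not follow the alpha subunit. ATP5F1C, the gamma subunit of the shaft, fell from 54.4 and 68.6 FPKM to 37.9 and 31.1 (log2 fold change -0.81 ± 0.21, limma, adjusted p = 0.0423). ATP5F1E, the epsilon subunit, fell from 383 and 382 to 193 and 174 (-1.06 ± 0.19, limma, adjusted p = 0.015). ATP5F1D, the delta subunit, had 92.3 and 71.2 in the controls and 114 and 66.5 with biotin, and its groups overlapped. The ATP synthase sum was 2844 and 2933 FPKM in the controls and 2704 and 2582 with biotin, and without ATP5F1A it was 2749 and 2843 against 1807 and 1579.

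The peripheral stalk, which holds the head still against the turning ring, had 3 of 4 genes that fell. ATP5PO, the subunit at the top of the stalk, went from 240 and 269.7 FPKM to 119 and 114, and ATP5PB, the long b subunit, from 17.6 and 23.0 to 10.0 and 11.3. ATP5PD, the d subunit, went from 25.9 and 21.8 to 13.4 and 10.5. Their log2 fold changes lay at -1.12, -0.86 and -0.94. ATP5PF, coupling factor 6, had 90.4 and 92.2 against 55.7 and 62.4 and did not pass (limma, adjusted p = 0.059), although its groups did not overlap.

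Of the small membrane subunits near the ring, which help ATP synthase dimerise, 3 of 5 tested genes fell. ATP5MK, a small subunit formerly known as DAPIT, had 505 and 499 FPKM in the controls and 179.7 and 202 with biotin (-1.39 ± 0.19, limma, adjusted p = 0.0065). ATP5MF, the f subunit, fell from 323 and 255 to 134 and 80.7, with the log2 fold change furthest below 0 in the enzyme, -1.46 ± 0.29. ATP5MG, the g subunit, fell from 41.2 and 52.2 to 19.0 and 22.1. ATP5MJ had 67.5 and 80.4 against 66.9 and 80.7, and ATP5ME overlapped between groups.

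The c subunit of the ring is made from 3 genes with different import sequences and the same mature protein, and their values are given separately. ATP5MC2 fell from 426 and 523 FPKM to 244 and 171 (-1.20 ± 0.25, limma, adjusted p = 0.0226). ATP5MC1 overlapped between the groups, with 82.1 and 138 in the controls and 112 and 74.6 with biotin. ATP5MC3, which carries a seed site inside its deposited UTR, had 12.9 and 13.8 in the controls and 32.0 and 20.0 with biotin. Both biotin values were higher, and the test was missed narrowly (0.88 ± 0.25, limma, adjusted p = 0.0514). Reads that the genes share through their common coding stretch could have been split between them, and the difference between the 3 genes was not tested.

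**Figure D3:**
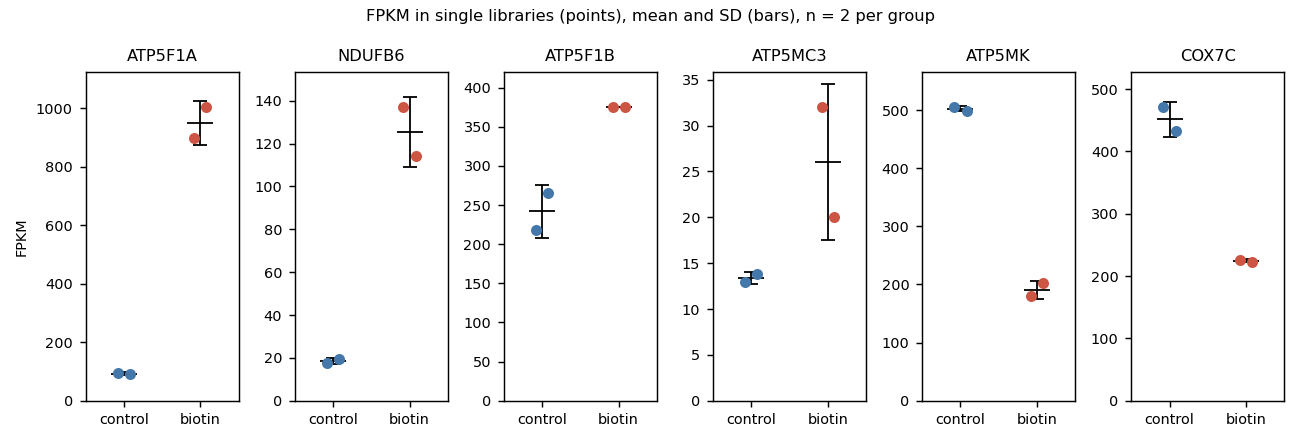
FPKM of 6 genes in single libraries (points), with the mean and SD (bars, n = 2 per group) and each vertical axis from 0. ATP5F1A and NDUFB6 rose, ATP5MK and COX7C fell, and ATP5F1B and ATP5MC3 had both biotin values above both controls without passing the test.

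Complex I showed the same mixture of many falling genes and a single large rise. Of 35 tested genes 13 fell and 1 rose, with a median log2 fold change of -0.61. All 14 are among the 28 tested accessory subunits, which surround the catalytic core and are needed to assemble it. The accessory subunits had a median of -0.80. Of the 7 core subunits encoded in the nucleus, which hold the flavin and the iron-sulphur clusters, 0 passed in limma (1 lower and 1 higher at an unadjusted p of 0.05), and their median was -0.08. The core genes had a median transcript length of 959 nt and the accessory genes 708 nt. The 35 together had a median length of 756 nt, and 25.4% of all tested genes from 600 to below 1000 nt fell. The difference between core and accessory genes was not tested.

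The core values were close between groups, and these genes were chosen for description after their values were seen. NDUFS7 had 109.5 and 94.8 FPKM in the controls and 101 and 102 with biotin, NDUFS3 32.2 and 34.8 against 34.4 and 32.3, and NDUFS1, which takes electrons along the arm, 9.42 and 10.8 against 9.47 and 9.55. NDUFV1, which holds the flavin, had a log2 fold change of -0.26. NDUFS8, by contrast, had 141 and 201 against 104 in each biotin library (-0.69 ± 0.23, limma, adjusted p = 0.0805). NDUFV2, which works beside NDUFV1, had 28.5 and 37.7 against 72.9 and 43.5, higher in both biotin libraries but unequally so (0.77 ± 0.29, limma, adjusted p = 0.107).

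NDUFB6, an accessory subunit of the membrane arm, had 17.4 and 19.5 FPKM in the control libraries and 137 and 114 after biotin pull-out. The change was 2.69 ± 0.20 on the log2 scale (limma, adjusted p = 0.000885), or 6.79-fold in mean FPKM, and estimated reads went from 239 and 290 to 2056 and 2279. Its 3′ UTR of 350 nt held no TACTTGA. The annotated NDUFB6 gene overlaps SMIM27 on the opposite strand over 15623 nt, and SMIM27 was listed at 0 in all 4 libraries. The library kit marks strand, but the strand option used in quantification is not named in the sources used here, so whether reads of SMIM27 were counted for NDUFB6 was not tested.

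Of the other NDUFB genes, which also belong to the membrane arm, 5 fell and none of the rest rose. NDUFB9 had 49.8 and 57.9 FPKM in the controls and 22.1 and 15.0 with biotin, the log2 fold change furthest below 0 among all 83 genes (-1.51 ± 0.24, limma, adjusted p = 0.00971). That value needs the sum over its transcripts. The whole of it was assigned to 1 accession in control replicate 1 and to another in control replicate 2, and the single transcript with the highest mean gave a change of 0.70 in the other direction. NDUFB4 went from 47.3 and 58.7 to 29.6 and 21.1 and NDUFB5 from 40.6 and 41.7 to 21.1 and 23.3, with log2 changes of -1.05 and -0.86. NDUFB8 went from 85.3 and 94.0 to 58.9 and 48.9 and NDUFB1, with higher levels, from 277 and 185 to 127 and 114, both close to the threshold (limma, adjusted p = 0.0467 and 0.0492).

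The NDUFA and NDUFC accessory genes that fell ranged widely in level. NDUFA11, a membrane subunit, had 262 and 368 FPKM in the controls and 149 and 133 with biotin. NDUFA7 had 211 and 227 against 106 and 105, with nearly equal replicates (-1.05 ± 0.19, limma, adjusted p = 0.0149). NDUFA13, also known as GRIM-19, went from 59.4 and 73.7 to 35.8 and 35.7. NDUFA1, needed early in assembly of the membrane arm, went from 94.4 and 82.0 to 45.1 and 30.8. NDUFA12 fell by 1.05 on the log2 scale and NDUFC1 by 0.91. For each of these genes both biotin libraries lay below both controls.

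A pair of accessory genes that carry the NDUFS name fell as well. NDUFS4, lost in a form of Leigh syndrome, went from 16.3 and 11.5 FPKM to 4.26 and 6.03 (-1.28 ± 0.23, limma, adjusted p = 0.0151), on 50 to 176 estimated reads a library, the fewest of any gene that passed. NDUFS5 went from 57.2 and 55.8 to 31.2 and 22.7 (-1.06 ± 0.22, limma, adjusted p = 0.021). The remaining accessory genes had log2 fold changes from -1.26 (NDUFB11, whose groups overlap) to 0.06 (NDUFC2).

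Complex II, also called succinate dehydrogenase, is the only one whose subunits are all nuclear and which also works in the tricarboxylic acid cycle. SDHD, a membrane anchor, fell from 39.0 and 44.5 FPKM to 18.2 and 21.2 (-1.05 ± 0.19, limma, adjusted p = 0.0147). Its partner anchor SDHC had 3.33 and 3.27 against 3.65 and 2.68, with overlap between groups and a change of -0.06 that was 0.11 without biotin replicate 2. SDHB, the iron-sulphur subunit, had 37.1 and 31.4 against 22.9 and 22.1 (limma, adjusted p = 0.0658), and SDHA, the flavoprotein, 16.4 and 15.5 against 10.8 and 14 (adjusted p = 0.219). The 4 genes had a median log2 fold change of -0.47. Their median length was 1833 nt, and 13.2% of all tested genes from 1000 to below 2000 nt fell.

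In complex III 3 of 16 tested genes fell and 0 rose in limma (8 lower and 0 higher at an unadjusted p of 0.05), with a median of -0.48 and all 16 values below 0. The 16 had a median length of 1336 nt. Of all tested genes 9.35% fell, and of those from 1000 to below 2000 nt, a class chosen after seeing the data, 13.2% did. UQCRC2, a core protein, went from 51.7 and 53.9 FPKM to 32.1 and 31.4 (-0.72 ± 0.18, limma, adjusted p = 0.0348). The small subunits UQCR10 and UQCR11 fell from 77.4 and 84.5 to 47.5 and 38.1 and from 31.5 and 24.5 to 12.8 and 9.88. Of the subunits that carry electrons, CYC1, cytochrome c1, had 41.2 and 63.6 against 23.1 and 34.1 (limma, adjusted p = 0.0826), and the Rieske protein gene UQCRFS1, which holds a seed site, had 33.3 and 44.2 against 34.1 and 35.7. The Rieske groups overlapped.

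UQCRH, the hinge protein, had 18.8 and 7.95 FPKM in the controls and 4.30 and 5.76 with biotin, and its retrocopy UQCRHL 3.88 and 1.41 against 0.549 and 0.943. The copies are close in sequence and their reads can be confused, so their values are uncertain. UQCRQ, a small subunit, had 53.3 and 84.0 against 50.8 and 54.3, with overlap. The 6 UQCC genes, which help assemble complex III and are not part of it, had a median of -0.40, and 0 of them passed in limma (1 lower at an unadjusted p of 0.05).

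Complex IV, cytochrome c oxidase, had 5 of 11 tested genes that fell and a median of -0.75. The 11 had a median length of 590 nt. Of all tested genes 9.35% fell, and of those under 600 nt 50.7% did, with a median of -0.84. COX7C had 471 and 432 FPKM in the control libraries and 226 and 223 after biotin pull-out (-1.0 ± 0.19, limma, adjusted p = 0.0174). COX7A2 went from 98.6 and 103 to 46.3 and 33.8 and COX7B from 177 and 110.4 to 53.3 and 68.9. COX5B, a subunit that binds zinc, went from 55.1 and 52.9 to 36.3 and 26.4. COX7A2L, which takes part in joining complexes III and IV into supercomplexes, fell from 21.8 and 23.4 to 7.73 and 10.8 (-1.22 ± 0.20, limma, adjusted p = 0.0121). In all 5 the groups did not overlap.

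Other subunits of complex IV did not pass. COX8A had the highest control FPKM of all members, 663 and 725, against 568 and 496 with biotin (-0.38 ± 0.20, limma, adjusted p = 0.201), and under quantile scaling its change was 0.28. COX6B1 had 258 and 317 against 259.8 and 179.5 and COX6A1 140.2 and 199 against 151 and 86.8, both with overlap between groups. COX4I1 was the 1 gene of complex IV with both biotin values above both controls, 149.5 and 146 against 131 and 109 (0.30 ± 0.20, limma, adjusted p = 0.302). COX5A, which has a seed site, had 37.2 and 46.3 against 39.7 and 37.8. COXFA4, formerly NDUFA4 and outside the naming rule used here, had 14 and 20.3 against 10.1 and 13.6.

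**Figure D4:**
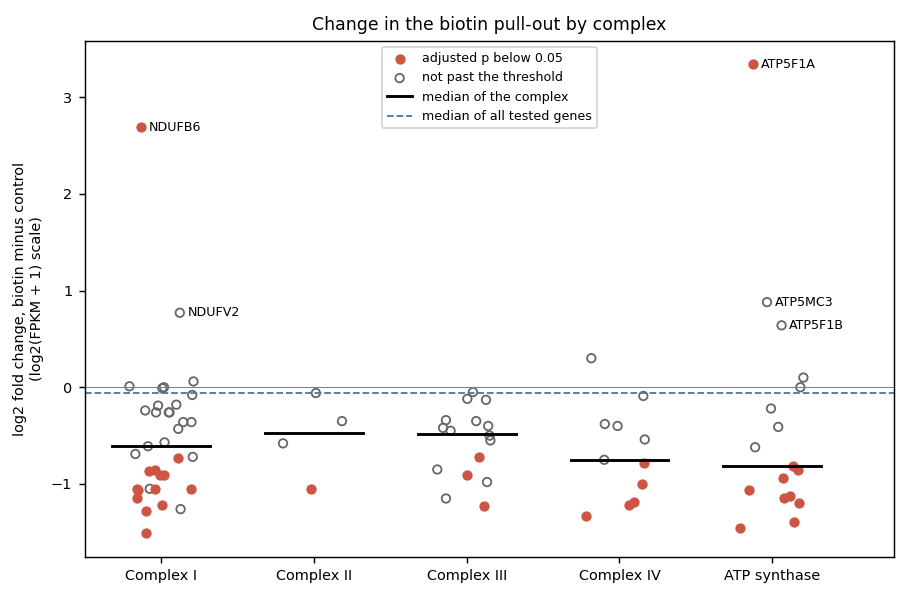
Log2 fold change (biotin minus control, log2(FPKM + 1) scale) of the 83 tested genes by complex, as points. Filled red points passed the test, black bars are the medians, from -0.81 in ATP synthase to -0.47 in complex II, and the dashed line is the median of all tested genes, -0.06.

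Oxidative phosphorylation mRNAs are short, and short transcripts fell more often among all genes. The tested members had main transcripts with a median of 824 nt (310 to 5536), beside 2846 nt for all tested genes, and 61.4% of members were under 1000 nt, beside 8.39% of all tested genes. Under 1000 nt 23 of 51 members fell (45.1%), beside 31.8% of all tested genes of that length. At 1000 nt or more 8 of 32 fell (25%), beside 7.29%. In narrower classes, chosen after seeing the data, 12 of 23 members under 600 nt fell (52.2%), beside 50.7% of all tested genes there, and 11 of 28 from 600 to below 1000 nt (39.3%), beside 25.4%. In the shortest class the members' share was thus near the background. Spearman's rho between length and log2 fold change was 0.46 over the 83 members and 0.21 over 9940 genes, a description across genes that share the 4 libraries.

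The median shift was then removed within each of 20 length classes of equal gene number. After this centring 10 members fell and 5 rose, in place of 31 and 2, and the members' median moved to -0.25. The shortest class held both ATP5ME, at 310 nt, and ATP5PO, at 806 nt, so any shift with length inside it was left in. The 10 were NDUFB9, SDHD, UQCRC2, UQCR11, COX7A2, COX7A2L, ATP5MC2, ATP5MG, ATP5MK and ATP5PB, all among the 31. The 5 were ATP5F1A and NDUFB6 with ATP5F1B, ATP5MC3 and NDUFV2, at adjusted p = 0.0494, 0.049 and 0.0242 for the last 3 in limma. Over all tested genes 929 fell and 1307 rose as deposited, 632 and 1453 after this centring, and 1389 and 1227 after upper-quartile scaling, which moved the members to 36 and 3. What part length had in the members' change was not tested beyond these values.

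**Figure D5:**
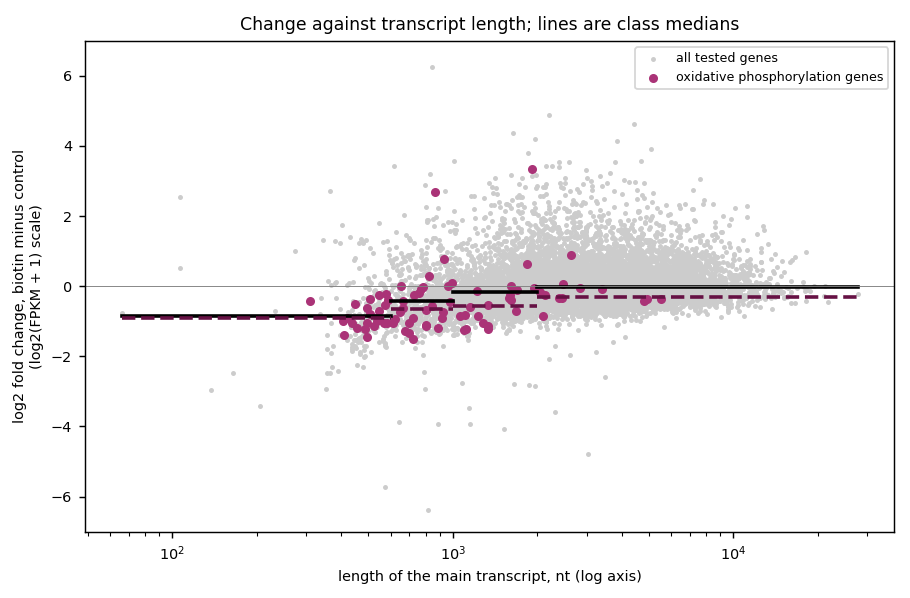
Log2 fold change (biotin minus control, log2(FPKM + 1) scale) against main transcript length in nt on a log axis, for all 9940 tested genes (grey) and the 83 members (purple). Solid lines are the medians of all genes in 4 length classes and dashed lines those of the members, both lowest under 600 nt, at -0.84 and -0.91.

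Other genes of the pathway were followed through lists, whose counts stand beside the 9.35% of all tested genes that fell and the 13.1% that rose. Of the 18 tested assembly factors of complex I, 4 fell and 2 rose, the rises at a share near that of all genes, with a median of -0.30. TMEM186, a factor for the membrane arm, rose from 2.68 and 1.83 FPKM to 7.10 and 6.10 (1.23 ± 0.18, limma, adjusted p = 0.00775), NDUFAF5, an arginine hydroxylase acting on NDUFS7, rose from 1.24 and 1.11 to 5.54 and 2.65, and TMEM126B fell by 0.94 on the log2 scale. For complex II 3 of 4 assembly factors fell, SDHAF1, SDHAF2 and SDHAF3, at -0.97, -0.96 and -0.76. For complex III 0 of 3 passed in limma (0 at an unadjusted p of 0.05), and for ATP synthase 0 of 3 (1 lower unadjusted).

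Among assembly factors of complex IV 7 of 28 tested genes fell and 0 rose in limma (3 higher at an unadjusted p of 0.05), with a median of -0.38. COX20, a chaperone of the mitochondrially encoded subunit COX2, had 3.07 and 2.81 FPKM in the controls and was listed at 0 in both biotin libraries (limma, adjusted p = 0.000834), so no fold is given. A listing at 0 may be a failed estimate, so this fall is not read as absence. Fits that left out a library cannot check that, as both biotin values were 0. COX14 went from 25.2 and 31.1 to 11.1 and 6.74 and CMC1 from 7.27 and 5.41 to 3.38 and 1.62.

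Of 12 tested electron carriers and other genes around the chain 3 fell. They were the electron-transfer flavoprotein gene ETFA (-0.90), the mitochondrial pyrophosphatase gene PPA2 (-1.0) and the ADP/ATP carrier gene SLC25A5 (-0.90). Of 19 enzymes of and around the tricarboxylic acid cycle 4 fell and 2 rose, the rises again near the share of all genes, with a median of -0.18. The risers were PC, pyruvate carboxylase, from 5.21 and 4.04 FPKM to 21.9 and 16.7, and SUCLA2, a subunit of succinyl-CoA ligase, from 3.88 and 4.25 to 14.5 and 16.3, and SUCLG2 fell by 0.91 on the log2 scale. In mitochondrial protein import 5 of 26 fell and 0 rose in limma (0 higher at an unadjusted p of 0.05), led by TOMM5 (-1.32), TIMM8B (-1.21) and TOMM22 (-0.87). Subunits encoded in mitochondrial DNA were not analysed here.

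Shared reads limit single genes. Of the 92 members 58 overlap another annotated gene, 45 of them on the opposite strand, and 50 have pseudogenes named after them, which is true of 24 of the 33 genes that passed. ATP5F1A has 7 such pseudogenes, NDUFB4 12, COX5B, ATP5MG and ATP5PB 8 each, and NDUFB6 none.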

How the data were processed

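RNA was recovered on streptavidin and sequenced from 2 control and 2 biotin samples, as TruSeq Stranded Total RNA libraries read as single 50 b reads, per the labels' protocols. FastQC 0.10.1, cutadapt, TopHat2 2.0.9, Cufflinks 2.1.1, Cuffdiff and build hg38 are named in the submitters' processing notes. The sources used here give neither their roles and settings nor the annotation or strand option used. The authors deposited 1 Cufflinks table per sample with, per the file headers, FPKM, coverage and length for 53209 transcript rows. Coverage, a deposited signal, served only to estimate depth and reads.

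Of 46699 RefSeq accessions 98.7% were named from RefSeq (GRCh38.p14) or GENCODE 29, and FPKM was summed per gene. The 22 genes with a failed or excess-data row and short RNA genes were left out of the tests. Genes with at least 1 FPKM in at least 2 libraries entered limma 3.58.1 (R 4.3.3) as unscaled log2(FPKM + 1), with lmFit and a trended eBayes. That pseudocount understates changes at low levels. The model had 2 residual degrees of freedom and 4.2 from the prior. The fit was tested on simulated data. A limit from 3 reads covers counting error only, and reads without molecular identifiers are not independent molecules.

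The members and lists were chosen with earlier results of these data known. Named genes were all members that passed, the up to 4 highest and 2 most changed of each complex, and up to 3 that passed from each list. Others, NDUFV2, COX4I1, ATP5MC1, ATP5MC3 and the core subunits of complex I among them, were described after their values were seen. Alternatives were other pseudocounts, filters and scalings, centring by length, no trend, single transcripts, short RNA genes kept, a replicate block, each library left out and other seed sites. A gene's values and a site are not reported here.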

Additional observations from a re-analysis of the deposited data

How the results depend on the processing

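ATP5F1A and NDUFB6 rose under every setting tried, with 2 members higher in most, 3 or 4 in some and 5 at most. The number of falling members, 31 as reported, was 29 to 36 under other pseudocounts, scalings, a mean FPKM of at least 5 or no variance trend. It was 10 with centring by length, 9 with no filter on low values, 19 with short RNA genes kept and 5 with the single top transcript of each gene. The share of all tested genes that fell was then 6.36%, 1.43%, 6.42% and 1.58%, against 9.35% as reported. Leaving out single libraries gave 0 to 10. There the lone library of a group is assumed to vary as the other group's do. Rising members numbered 5 with centring by length and 4 with median-of-ratios scaling or without the trend. The causes were not tested.

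With the replicate number as a block, 20 members were lower, beside 5.41% of all tested genes. Of the 20, 19 were among the 31, and the other was NDUFB11 (limma with the block, adjusted p = 0.0242). The 20 included 8 in complex I, 1 in complex III and 3 in complex IV. Across genes, the difference between the controls correlated with that between the biotin libraries at 0.0182. Whether same-numbered libraries shared a day is not stated in the labels and was not tested.

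The members' median, -0.58, was -0.25 with centring by length and -0.66 with upper-quartile scaling. By complex, centring gave -0.19 (I), -0.29 (II), -0.30 (III), -0.16 (IV) and -0.32 (ATP synthase). A pseudocount of 5 gave -0.36 (III) and -0.68 (ATP synthase), a mean FPKM of at least 5 gave -0.58 (II), and quantile scaling -0.59 (IV). Leaving out single libraries gave -0.79 to -0.34 (I), -0.54 to -0.39 (II), -0.66 to -0.41 (III), -0.94 to -0.56 (IV) and -0.82 to -0.68 (ATP synthase).

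Falling genes with centring by length were 1 (I), 2 (IV) and 4 (ATP synthase). With no filter they were 3 (I), 0 (III), 2 (IV) and 3 (ATP synthase), with short RNA genes kept 7 (I), 1 (III) and 3 (IV), and with single transcripts 1 (I), 0 (II), 0 (III), 1 (IV) and 3 (ATP synthase). In complex II 2 fell with a mean FPKM of at least 5, upper-quartile or quantile scaling, or no trend. Leaving out single libraries gave 0 to 5 (I), 0 to 1 (II, III and IV alike) and 0 to 3 (ATP synthase). The seed site numbered 10 members with nucleotides 2 to 7, 5 in the whole annotated UTR and 2 with an A after the match.

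Of 703 recomputed changes of 44 named genes 476 kept both their sign and their side of the threshold. Another 210 lost the call, 10 gained it and 7 changed sign. With centring by length COX6A1 had 0.08, COX6B1 0.22 and COX8A 0.24, and COX8A had 0.28 under quantile scaling. NDUFB9 had 0.70 as a single transcript, and SDHC 0.00 under median-of-ratios scaling, with -0.22 to 0.11 on leaving out single libraries. The fewest estimated reads in any library were 5.2 among tested members, for UQCRHL, and 50.4 among those that passed, for NDUFS4.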
